A study of Mus musculus with 8 samples.

Results

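The ovulatory and cumulus expansion genes were taken as the 9 genes Has2, Ptgs2, Tnfaip6, Ptx3, Areg, Ereg, Btc, Pgr and Adamts1, found by symbol among the 45583 gene symbols counted in whole ovaries of juvenile mice. Total RNA was sequenced from the ovaries of 3-week-old C57/Bl6 females, 4 labelled wild type (WT: animals 1118, 1119, 1120 and 1121) and 4 labelled ghrelin-O-acyltransferase knockout (GOAT KO: animals 1139, 1140, 1141 and 1146). GOAT, encoded by Mboat4, is the enzyme that acylates ghrelin, and the knockout is a global deletion, so that every tissue of the animal and not the ovary alone lacks the enzyme. No hormone treatment is stated for either group, and the comparison asks whether genes known to respond to the ovulatory surge of luteinizing hormone (LH) differed between the genotypes before the first ovulation. Each library held between 16147216 and 19481798 counts on genes, and the 9 genes together took 0.00457% of all counts.

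The surge of LH acts on receptors of the mural granulosa cells that line the antral follicle. These cells then make the EGF-like ligands amphiregulin (Areg), epiregulin (Ereg) and betacellulin (Btc), which are cut from the cell membrane by proteases and activate the EGF receptor of the cumulus cells around the oocyte. The receptor turns on hyaluronan synthesis (Has2), prostaglandin synthesis (Ptgs2) and the proteins that bind hyaluronan into an elastic matrix (Tnfaip6 and Ptx3), while the progesterone receptor (Pgr) and the protease Adamts1 are needed for rupture of the follicle wall. In ovaries that have not yet met the surge these genes are known to be weakly transcribed.

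The libraries carried transcripts of granulosa cells and oocytes, and whether the granulosa cells were at a stage that responds to LH was not tested. The summed level of 6 granulosa cell genes was 4549 to 5643 CPM (counts per 1000000, scaled to TMM-adjusted library sizes) over the 8 libraries, and that of 6 oocyte genes 738.9 to 941.5 CPM. The 5 genes of the luteal cell list summed to 95.29 to 135.7 CPM, nearly all of it from Prlr (62.2 to 96.75 CPM) and Lhcgr (22.1 to 37.3 CPM), which other ovarian cells also express, while the other 3 (Akr1c18, Ptgfr and Sfrp4) lay between 0.581 and 5.27 CPM. Mboat4 itself had 1, 1, 1 and 3 counts in the libraries labelled WT and 5, 7, 7 and 8 in those labelled GOAT KO, the opposite of what the labels say if the transcript is lost. The counts run over the whole gene, and which part of it was deleted is not given in the sources used here. Directions below follow the labels. Fewer cells of a type and less RNA per cell cannot be told apart in whole-ovary RNA.

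Several of these promoters are known to respond to cAMP, the messenger of LH in granulosa cells. The 250 bases before the start site of Areg, Ptgs2 and Adamts1 (RefSeq, GRCm38.p6, strand of the gene) are shown because they span the measured range, from a gene with 0 counts in every library to the highest of the 9. Capitals mark matches to the cAMP response element (CRE) TGACGTCA or its core TGACG, read on either strand, the palindrome TTGCGCAA of C/EBP factors, and the TATA box TATAAA. They lie at chr5:91139349-91139598 on the plus strand (Areg), chr1:150099781-150100030 on the plus strand (Ptgs2) and chr16:85803114-85803363 on the minus strand (Adamts1).
Areg: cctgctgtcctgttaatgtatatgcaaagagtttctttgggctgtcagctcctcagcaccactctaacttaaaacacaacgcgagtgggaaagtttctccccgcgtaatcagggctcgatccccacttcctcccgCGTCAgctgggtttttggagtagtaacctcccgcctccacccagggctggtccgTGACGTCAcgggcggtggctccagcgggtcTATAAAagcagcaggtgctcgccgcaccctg
Ptgs2: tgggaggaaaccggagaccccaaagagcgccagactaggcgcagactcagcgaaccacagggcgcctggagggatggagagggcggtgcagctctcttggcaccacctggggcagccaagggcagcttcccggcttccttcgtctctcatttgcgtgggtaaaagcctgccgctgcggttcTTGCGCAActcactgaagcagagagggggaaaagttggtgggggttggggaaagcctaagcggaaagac
Adamts1: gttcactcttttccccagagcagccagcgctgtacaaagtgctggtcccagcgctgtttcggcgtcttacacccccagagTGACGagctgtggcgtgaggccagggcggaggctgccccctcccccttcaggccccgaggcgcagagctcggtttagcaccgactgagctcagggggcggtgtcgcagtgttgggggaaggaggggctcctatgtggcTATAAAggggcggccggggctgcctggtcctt

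Areg carried a full CRE whose first base was at -61 from the start site, a further core at -115 and a TATA box at -31. Ptgs2 had no full CRE in this window but the C/EBP palindrome at -69. Adamts1 had a CRE core at -170 and a TATA box at -32. The search ran on both strands from 250 bases before to 50 bases after the start, and a full CRE, which always contains the core, was found in 1.79% of 32851 mouse promoters, the core in 20.8%, the C/EBP palindrome in 0.183% and the TATA box in 13.6%. Of the 7 members matched to a promoter, 4 held the CRE core: Areg, Ptgs2 (at 14, overlapped by the E-box CACGTG at 17, a motif found in 7.15% of promoters), Btc (at -113) and Adamts1. The SP1 motif GGGCGG, present in 35.7% of promoters, was found in Ptgs2, Tnfaip6, Areg, Pgr and Adamts1, and Pgr also held a TATA box on the opposite strand at -212. Ptx3 had none of the 6 motifs searched. Has2 and Ereg had no entry in the promoter table. These matches describe the letters of the window and are not binding sites.

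On a scale per transcript length (RPKM), the members were low. Adamts1 led with a mean of 6.02 ± 0.426 RPKM (SD, n = 8 libraries), near the median of 6.7 RPKM over 15794 genes tested that had a length. Ptx3 followed with 2.04 ± 0.346 RPKM and Btc with 0.632 ± 0.0869 RPKM. The ranges of Adamts1, Ptx3 and Btc did not overlap with one another. Tnfaip6 (0.439 RPKM), Pgr (0.276), Has2 (0.253) and Ereg (0.201) came next, and each overlapped its neighbour in this order over the 8 libraries. Ptgs2 stood at 0.0944 RPKM (percentile 0.507 of the genes tested), and Areg had no counts at all. Thus 5 of the 9 genes (Has2, Ptgs2, Tnfaip6, Areg and Ereg) stayed under 2 CPM in every library.

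Genes that act with the members were expressed over a wide range. Egfr, the receptor of the EGF-like ligands, averaged 14.4 RPKM, and Adam10, a protease that sheds such ligands, 66.2 RPKM, while the related receptors Erbb2, Erbb3 and Erbb4 averaged 16.8, 1.49 and 0.0514 RPKM. Lhcgr, the LH receptor, averaged 4.02 RPKM, between Adamts1 and Ptx3. Ptges, which makes prostaglandin E downstream of Ptgs2, averaged 42.8 RPKM, and Hpgd, which degrades prostaglandins, 113 RPKM, while the prostaglandin E receptors Ptger1, Ptger2, Ptger3 and Ptger4 averaged 0.255, 3.35, 1.66 and 1.1 RPKM. Vcan, the proteoglycan cut by Adamts1, averaged 22.2 RPKM. Tgfa and Hbegf, EGF-like ligands outside the 9, averaged 6.47 and 2.20 RPKM, the latter near Ptx3, and the oocyte factors Gdf9 and Bmp15, which enable cumulus expansion, 151 and 49.7 RPKM (these 4 genes, and the Erbb and Ptger receptors, were named for their place in the pathway after their values were seen).

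**Figure D1:**
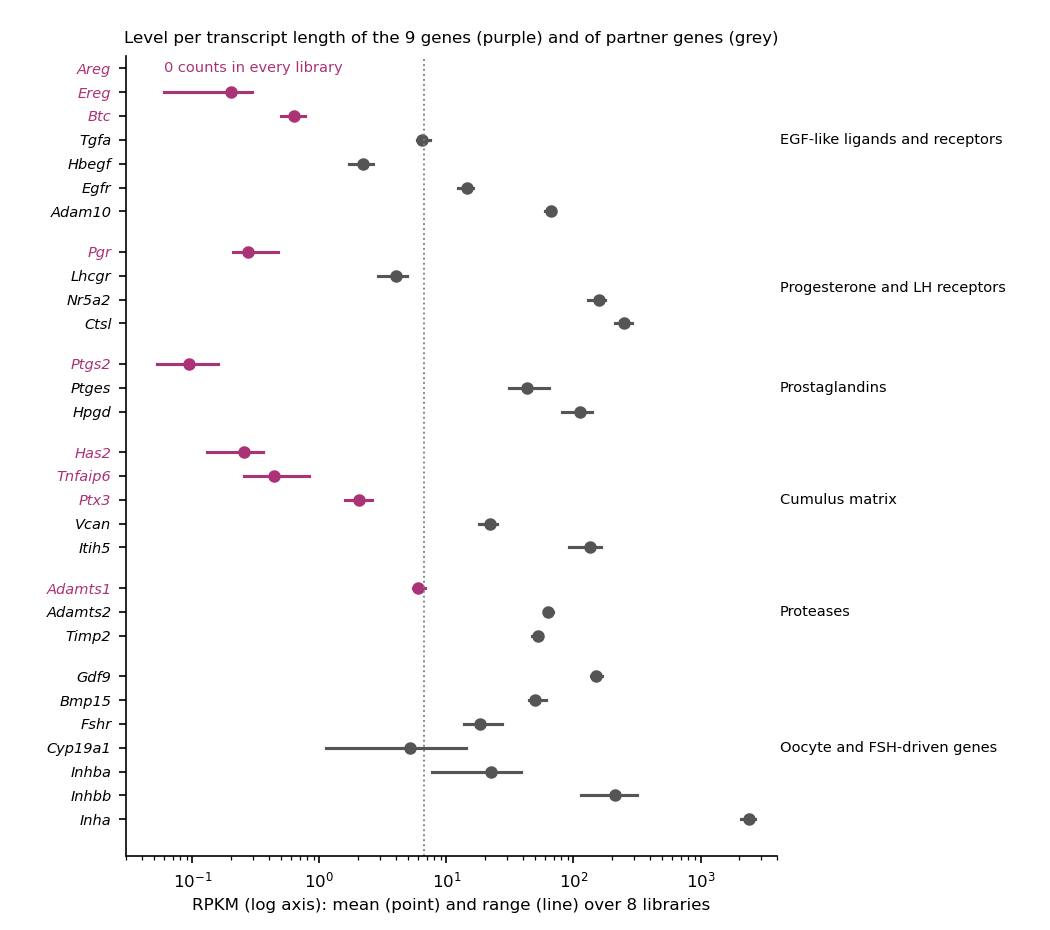
Mean level (points) and range (lines) over the 8 libraries in RPKM on a log axis, for the 9 genes in purple and for partner genes in grey, with the median of all genes tested as a dotted line at 6.7 RPKM. All 9 genes lie left of that median on average, Adamts1 nearest to it at 6.02 RPKM, while the receptor Egfr lies at 14.4 RPKM.

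Of the 9 genes, 8 had counts and 7 passed the filter on low counts (Areg and Ptgs2 did not). The filter asked for about 0.566 CPM in at least 4 libraries of any group, so a gene could pass through 1 group alone, and Tnfaip6 lay above this level in all 4 GOAT KO and in 2 of the 4 WT libraries. Counts over the 7 are given as a description. A gene was called changed in edgeR's quasi-likelihood test where its unadjusted p was under 0.05 with a log2 fold change of more than 0.5 in size. By that rule 1 of the 7 was called, Tnfaip6, with the higher level in GOAT KO. Over all 16601 genes tested 278 were called, or 1.67%, of which 159 were higher (0.958%) and 119 lower (0.717%) in GOAT KO. None of the 7 passed an adjusted p of 0.05 (Benjamini-Hochberg over all genes tested), which 4 of 16601 genes did (0.0241%), and 1 had an unadjusted p under 0.05 against 4.62% of all genes. The fitted change was upward in 4 members and downward in 3, with a median log2 fold change of 0.074 against -0.00035 over all genes tested.

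**Figure D2:**
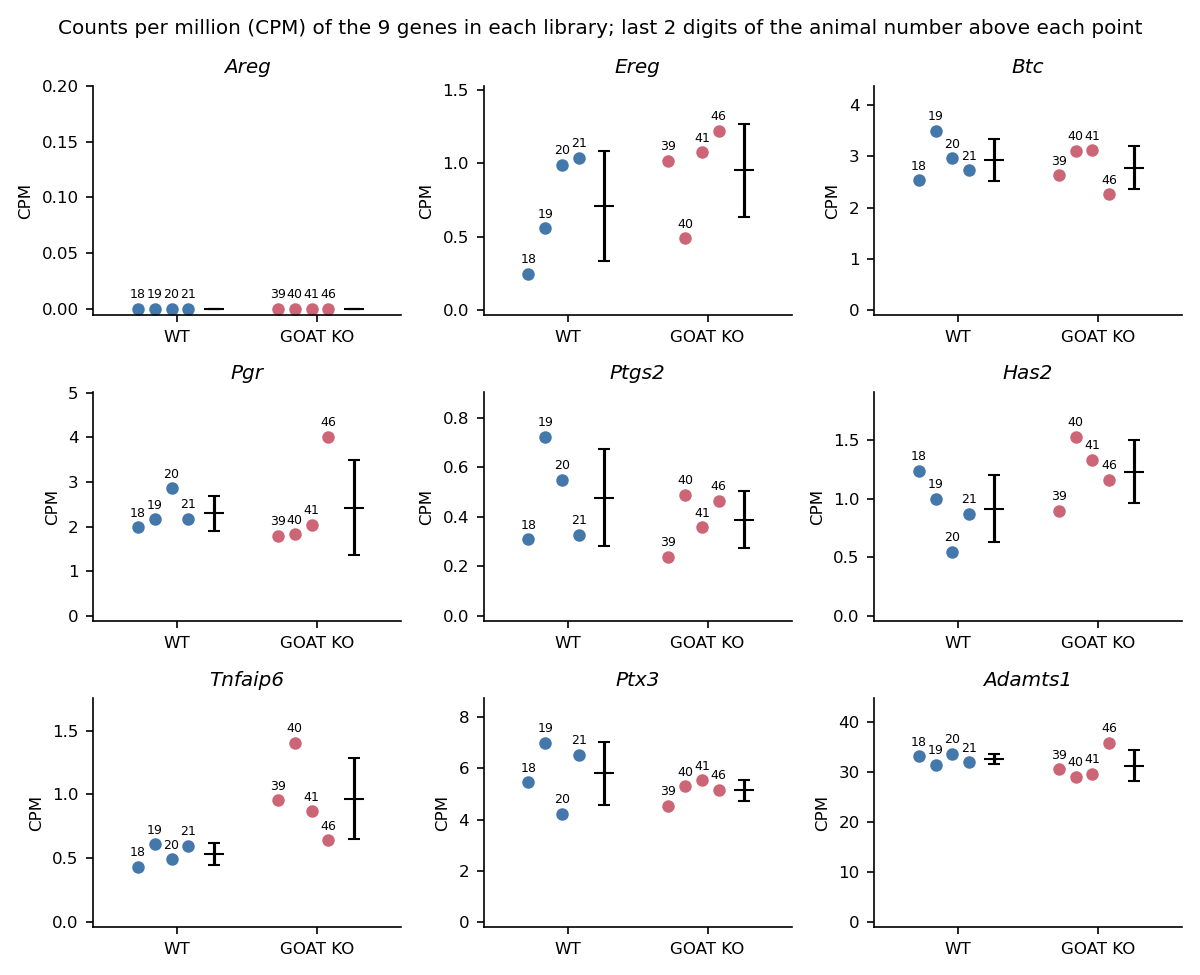
CPM of each of the 9 genes in the 4 WT (blue) and 4 GOAT KO (red) libraries, each panel with its own axis from 0, with the mean and SD beside each group. The groups of Tnfaip6 do not overlap, those of Areg are all at 0, and for the other genes the groups overlap.

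Areg, the amphiregulin gene and among the first targets of LH in granulosa cells, had 0 counts in each of the 8 libraries and 0 reads across its introns. A count of 0 allows up to 3 counts, which was 0.154 to 0.186 CPM in a single library and 0.0213 CPM over all 8, counting error only. A level under these limits could not be detected at this depth, so no fold change is given. The neighbouring ligand genes on the same chromosome (GRCm38: Ereg chr5:91074622-91093646, Areg chr5:91139599-91148432, Btc chr5:91357261-91402994) did have counts.

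Ereg, the epiregulin gene, had 0.248, 0.556, 0.988 and 1.04 CPM in WT 1118, 1119, 1120 and 1121, from 4 to 19 counts. It had 1.02, 0.489, 1.08 and 1.22 CPM in GOAT KO 1139, 1140, 1141 and 1146. The lowest library was WT 1118 and the highest GOAT KO 1146, 4.93 times apart, and the groups overlapped over most of their range. The log2 fold change was 0.41 (SE 0.40, 95% CI -0.47 to 1.29, adjusted p = 0.983), which leaves room for a change beyond 2-fold upward, and it ranged from 0.15 without WT 1118 to 0.65 without WT 1121. Its biological coefficient of variation (BCV, the spread between libraries beyond counting error) was 0.285, the highest of the 7 and above the median of 0.105 over all genes tested. An antisense gene, Gm19610, overlaps an exon of Ereg and has no row of its own in the count table; whether counting used strand is not given, so reads of the pair cannot be told apart.

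Btc, the betacellulin gene, was the most abundant of the 3 ligands. Its level was 2.54, 3.501, 2.96 and 2.73 CPM in WT and 2.63, 3.12, 3.12 and 2.27 CPM in GOAT KO, in the same order of animals. GOAT KO over WT gave a log2 fold change of -0.075 (SE 0.17, 95% CI -0.45 to 0.30, adjusted p = 0.986). The sign turned without WT 1119 or without GOAT KO 1146 (0.018 and 0.011), so no direction is given. The interval stays within 2-fold in either direction.

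Pgr, the progesterone receptor gene (chr9:8899833-8968611), had 1.98, 2.17, 2.85 and 2.18 CPM in WT. In GOAT KO it had 1.80, 1.83, 2.05 and 4.01 CPM, so that GOAT KO 1139 and 1140 lay below the WT range, 1141 within it and 1146 above every other library. Its log2 fold change was 0.074 (SE 0.27, 95% CI -0.53 to 0.67, adjusted p = 0.988) and turned to -0.28 without GOAT KO 1146. Of the 12 genes in the list of those that FSH drives in antral follicles, 3 were also highest in that library (Fshr, Inhba and Grem1) and the other 9 in other libraries.

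Ptgs2, which encodes the inducible cyclooxygenase (chr1:150100031-150108227), had between 4 and 13 counts a library and was below the filter. It lay at 0.310, 0.722, 0.549 and 0.327 CPM in WT and at 0.239, 0.489, 0.358 and 0.465 CPM in GOAT KO. The group means of 0.477 ± 0.197 and 0.388 ± 0.114 CPM (SD, n = 4 each) differed by -0.0892 CPM (two-sided exact permutation test over libraries, p = 0.457). The difference ranged from -0.145 CPM without WT 1118 to -0.00738 CPM without WT 1119, the highest library. The groups overlapped, and the spread within them was that of counting error (chi-square per degree of freedom 0.989).

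Has2, the hyaluronan synthase of the cumulus cells (chr15:56665627-56694539), had 1.24, 1.00, 0.549 and 0.872 CPM in WT. It had 0.897, 1.53, 1.33 and 1.16 CPM in GOAT KO, with 3 GOAT KO libraries above 3 of the WT libraries and the groups overlapping. The fitted log2 fold change was 0.43 (SE 0.27, 95% CI -0.17 to 1.04, adjusted p = 0.983), and ranged from 0.25 without WT 1120 to 0.60 without WT 1118. Exons of the antisense gene Has2os, which had 3 to 15 counts a library, overlap Has2, and reads of the pair cannot be told apart here.

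Tnfaip6 (chr2:52038009-52056686) encodes the protein that transfers the heavy chains of inter-alpha-inhibitor onto hyaluronan. It had 7, 11, 9 and 11 counts in WT and 16, 23, 17 and 11 in GOAT KO, or 0.434, 0.611, 0.494 and 0.600 CPM against 0.957, 1.41, 0.870 and 0.639 CPM. All 4 GOAT KO libraries lay above all 4 WT libraries, though WT 1119 and GOAT KO 1146 had 11 counts each. Groups did not overlap in 1 of the 7 members and in 2.92% of all genes tested (1.64% with GOAT KO higher). The means were 0.535 ± 0.0855 and 0.968 ± 0.321 CPM (SD, n = 4 each). A two-sided exact permutation test gave p = 0.0286, the smallest that 4 against 4 libraries can give. Any groups of this size that do not overlap give this p, so it adds nothing to the lack of overlap. In the same test p ran from 0.2 (Has2) to 0.971 (Pgr) for the other members with counts. The log2 fold change was 0.83 (SE 0.29, 95% CI 0.20 to 1.47), with an unadjusted p of 0.0151 and an adjusted p of 0.983 in edgeR's quasi-likelihood test, so it does not hold once all genes tested are taken into account. Without GOAT KO 1140, the highest library, the log2 fold change was 0.61 with an unadjusted p of 0.055, and the call was lost.

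Of the 13 marker lists, only those of mast cells and granulocytes and of adipose tissue held called genes. These are given beside Tnfaip6. The 6 mast cell and granulocyte genes summed to 0.709 to 1.24 CPM in WT and to 1.54 to 3.95 CPM in GOAT KO. Only 1 of the 6 passed the filter, Cma1, and Fcer1a had no more than 3 counts a library. Cma1 was called higher, with a log2 fold change of 1.06 and an adjusted p of 0.983 in edgeR's test. Without WT 1120 and GOAT KO 1139 it was not called, at 0.62 with an unadjusted p of 0.139. The 5 adipose tissue genes summed to 8.67 to 20.01 CPM in WT, to 327 CPM in GOAT KO 1139 and to no less than 16.2 CPM in the other GOAT KO libraries. All 4 adipose genes tested (Adipoq, Plin1, Cidec and Cfd) were called higher in GOAT KO, and without WT 1120 and GOAT KO 1139 this held for Plin1 alone (log2 fold change 0.96, then 0.78 with an unadjusted p of 0.00717). Adipoq had 96.7 CPM in GOAT KO 1139 and at most 2.99 CPM elsewhere. Tnfaip6 had 0.957 CPM in GOAT KO 1139 and 1.41 CPM, its highest, in GOAT KO 1140. Its log2 fold change without WT 1120 and GOAT KO 1139 was 0.80 (unadjusted p 0.0541). The part of these cells in the Tnfaip6 values was not tested.

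Ptx3 encodes the pentraxin that cross-links the heavy chains in the cumulus matrix (chr3:66219910-66225805). It was the highest of the 3 matrix genes in every library, on counts as per length, with 5.45, 7.001, 4.23 and 6.54 CPM in WT and 4.55, 5.32, 5.53 and 5.17 CPM in GOAT KO. The GOAT KO libraries all lay inside the WT range. The log2 fold change was -0.17 (SE 0.16, 95% CI -0.54 to 0.19, adjusted p = 0.983), and ranged from -0.30 without WT 1120 to -0.076 without WT 1119. Ptx3 lies within the span of Veph1 on the other strand without sharing an exon, and Veph1 had 4 to 10 counts a library.

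Adamts1 encodes a protease that cuts versican in the expanded matrix (chr16:85793827-85803113), and had the most precise fold change of the 9. Its level was 33.2, 31.5, 33.6 and 32.0 CPM in WT and 30.6, 29.0, 29.6 and 35.9 CPM in GOAT KO. Of the GOAT KO libraries 3 lay below every WT library and 1 above them all. On the log2 scale the fold change was -0.058 (SE 0.079, 95% CI -0.23 to 0.12, adjusted p = 0.983), an interval from 0.852-fold to 1.08-fold, and it ranged from -0.13 without GOAT KO 1146 to -0.024 without GOAT KO 1140. For 4 of the 7 members (Ptx3, Btc, Pgr and Adamts1) the interval excluded a 2-fold change in either direction.

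**Figure D3:**
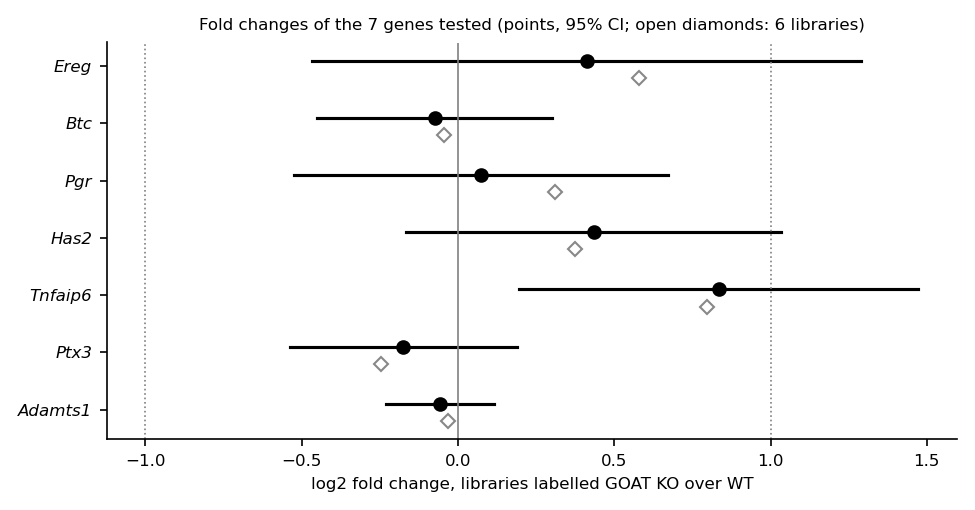
log2 fold change of libraries labelled GOAT KO over WT for the 7 genes that passed the filter (points, with 95% confidence intervals), and the same without WT 1120 and GOAT KO 1139 (open diamonds); dotted lines mark 2-fold. The interval of Tnfaip6, 0.20 to 1.47, lies right of 0, and the other 6 cross it.

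Reads that span annotated introns gave a second readout from the same libraries. Each library had its own table of these reads, and they were scaled to all junction reads of the library in the way CPM is (reads per 1000000, RPM). The 9 genes differed widely in how many they had: 303 over the 8 libraries for Adamts1, 15 for Btc, 12 for Ptx3, 11 for Pgr, 6 for Tnfaip6, 3 for Ereg, 2 for Has2, 1 for Ptgs2 and 0 for Areg. The reads of Tnfaip6 (2 each in GOAT KO 1139, 1140 and 1141), Ereg and Has2 were all in GOAT KO libraries and the read of Ptgs2 in a WT library, numbers too small to compare the groups. Only Adamts1 had at least 50, the minimum set for a test.

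For Adamts1 these reads came to 14.3, 15.2, 15.4 and 14.8 RPM in WT and to 11.1, 12.04, 9.57 and 14.2 RPM in GOAT KO. All 4 WT libraries lay above all 4 GOAT KO libraries, although WT 1118 and GOAT KO 1146 were close. The means were 14.9 ± 0.484 and 11.7 ± 1.94 RPM (SD, n = 4 each; two-sided exact permutation p = 0.0286, again the smallest possible), from 170 and 133 reads. Of 10268 genes with at least 50 such reads, 3.03% had groups that did not overlap, 1.44% with GOAT KO lower. The largest difference was at the most 3′ of the 8 introns with reads (GRCm38 chr16:85796101-85796638), which had 0, 8, 10 and 9 reads in WT and 0, 0, 2 and 0 in GOAT KO. Without this intron, picked for its difference so that a smaller value was bound to follow, the means were 12.6 ± 1.18 and 11.6 ± 2.18 RPM (SD, n = 4 each; two-sided exact permutation p = 0.429) and the groups overlapped. Of the other introns, chr16:85799214-85799535 had 30 reads in WT and 16 in GOAT KO, and chr16:85796815-85797717 had 13 and 27.

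**Figure D4:**
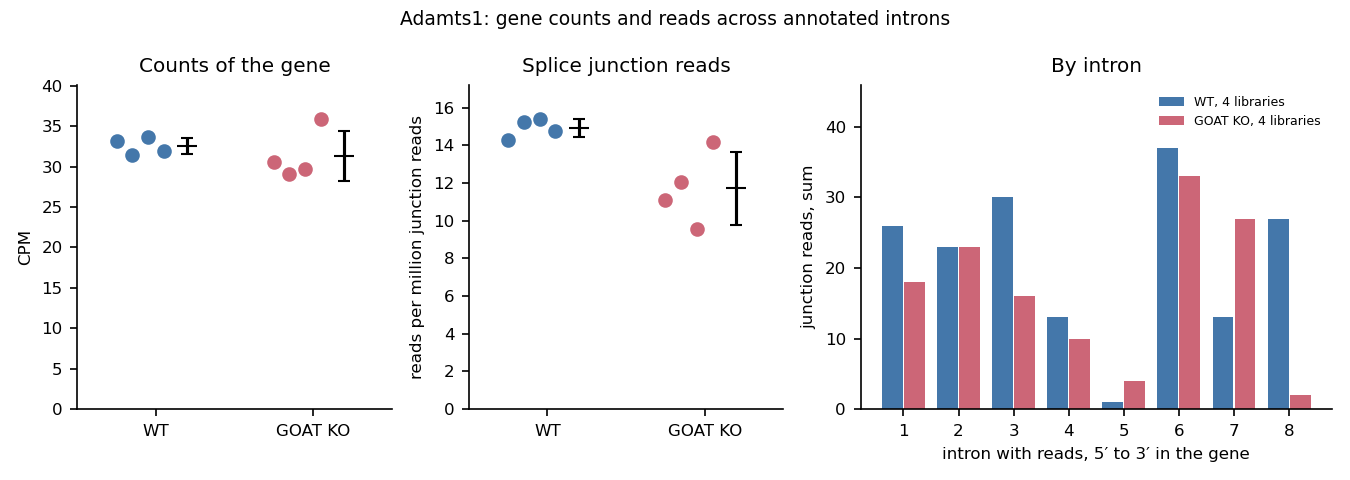
Adamts1 counts in CPM (left) and reads across its annotated introns in RPM (middle), by library with mean and SD, and the junction reads summed over 4 libraries for each of 8 introns from 5′ to 3′ (right). The counts overlap between groups and the junction reads do not, and the last intron holds 27 WT and 2 GOAT KO reads.

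The 8 members with counts differed in the library where they were highest. It was WT 1119 for Ptgs2, Ptx3 and Btc, GOAT KO 1140 for Has2 and Tnfaip6, and GOAT KO 1146 for Ereg, Pgr and Adamts1. The lowest was WT 1118 for Ereg and Tnfaip6, WT 1120 for Has2 and Ptx3, GOAT KO 1139 for Ptgs2 and Pgr, GOAT KO 1140 for Adamts1 and GOAT KO 1146 for Btc. The spread within groups was under 2 times counting error (chi-square per degree of freedom) for Has2, Ptgs2, Tnfaip6 and Btc, and was 2.56 for Ereg, 2.69 for Ptx3, 2.98 for Adamts1 and 4.58 for Pgr. The median BCV of the 7 was 0.166.

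**Figure D5:**
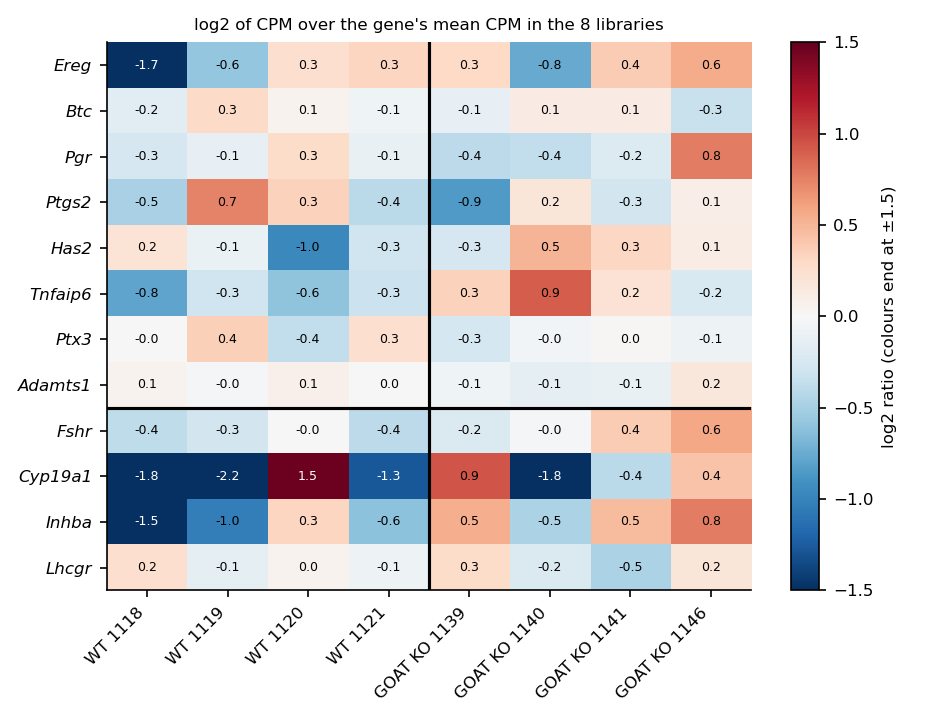
log2 of each gene's CPM over its mean CPM in the 8 libraries, for the 8 members with counts (above the line) and 4 genes of follicle growth and gonadotropin response (below). The members' highest values fall in different libraries, and Cyp19a1 ranges from 5.06 CPM in WT 1119 to 65.0 CPM in WT 1120.

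For each member that passed the filter, the genes whose log2 CPM followed it most closely over the 8 libraries are given as a description, by Pearson's r. They were Pex3 (0.978), Caprin2 (0.97) and Siae (0.966) for Has2 and Grb7 (0.969), Shcbp1l (0.956) and 1700016H13Rik (0.951) for Tnfaip6. Ptx3 was followed by Usp34 (0.977), Dnal1 (0.97) and Nvl (0.966), and Ereg by Prdm15 (0.985), Gm7327 (0.972) and Acot11 (0.965). Btc was followed by Cdk5rap1 (0.937), RP23-231L15.4 (0.933) and Capg (0.919), and Pgr by Smarca1 (0.972), Art4 (0.948) and Lifr (0.922). Adamts1 was followed by Wnk3 (0.973), Rnasek (0.967) and Zfp36l1-ps (0.945). No member was among the 3 closest to another member. These values were picked as the highest among all genes tested, over 8 points that share library, depth and counting error.

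The other genes of the pathways were read from 7 lists of 103 genes, of which 97 were tested. The rule called 3 of them (3.09%, against 1.67% of all genes tested), 2 higher and 1 lower in GOAT KO, and none passed an adjusted p of 0.05. The median log2 fold change of the 97 was -0.0025.

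In the EGF and ErbB list 0 of 13 genes tested were called, with 6 higher and 7 lower by sign and a median of -0.0067. The log2 fold changes of its most abundant genes were 0.048 for Egfr (SE 0.083) and -0.048 for Adam10 (SE 0.058). In the prostaglandin list 0 of 14 were called (median 0.015), with -0.062 for Ptges (SE 0.24) and -0.088 for Hpgd (SE 0.16). In the list of hyaluronan and cumulus matrix genes 0 of 14 were called (median -0.052), with 0.13 for Vcan (SE 0.096) and -0.059 for Itih5 (SE 0.16), a gene of the inter-alpha-inhibitor heavy chain family. Has1, Itih1 and Ambp of that list had at most 3 counts a library. In the list of Adamts proteases and their inhibitors 0 of 14 were called (median 0.043), with -0.085 for Adamts2 (SE 0.058) and 0.063 for Timp2 (SE 0.061). In the list of oocyte factors and their receptors 0 of 10 were called (median -0.00097), with -0.093 for Bmpr2 (SE 0.15) and -0.0068 for Bmpr1b (SE 0.13).

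Among LH response genes and targets of the progesterone receptor, 1 of 20 genes tested was called. Cited4, a transcriptional co-regulator, had 9.11, 6.33, 8.95 and 5.94 CPM in WT and 6.22, 3.91, 3.53 and 2.67 CPM in GOAT KO. GOAT KO 1139 was the one library inside the WT range, and the others lay below it. The log2 fold change was -0.89 (SE 0.25, unadjusted p 0.00397, adjusted p = 0.983 in edgeR's quasi-likelihood test). The most abundant genes of this list were Ctsl, a lysosomal protease that Pgr is known to induce, with a log2 fold change of 0.086 (SE 0.098), and Nr5a2, an orphan nuclear receptor of granulosa cells, with 0.13 (SE 0.093). Lhcgr had a log2 fold change of -0.056 (SE 0.16). Star, which moves cholesterol into mitochondria for steroid synthesis and was named after its values were seen, had the largest fitted change of the list, 1.89 (SE 0.95, unadjusted p 0.0717, adjusted p = 0.983 in edgeR), with 233.5 CPM in GOAT KO 1139 and 8.14 to 31.9 CPM in the other libraries. Without WT 1120 and GOAT KO 1139 it was -0.10.

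Among genes that FSH drives in antral follicles, the stage that precedes the LH surge, 2 of 12 were called, both higher in GOAT KO, and the median log2 fold change was 0.34. Inhba, a subunit of activin A and inhibin A, had 49.6, 70.3, 179.9 and 93.9 CPM in WT and 210.7, 103.5, 200.6 and 245.6 CPM in GOAT KO (log2 fold change 0.95, SE 0.36, unadjusted p 0.0235 and adjusted p = 0.983 in edgeR). Grem1, a BMP antagonist, had 4.21, 4.33, 5.87 and 5.34 CPM in WT and 6.04, 6.60, 13.4 and 22.3 CPM in GOAT KO (log2 fold change 1.29, SE 0.37, unadjusted p 0.00542 and adjusted p = 0.983 in edgeR). The call of Inhba was lost without WT 1118 (0.73), WT 1119 (0.82), WT 1121 (0.93) or GOAT KO 1146 (0.80), with unadjusted p-values from 0.0508 to 0.0662. That of Grem1 was kept, but its log2 fold change was 0.82 without GOAT KO 1146. WT 1120 overlapped the GOAT KO range for Inhba, while the groups of Grem1 and of Nppc did not overlap, as in 2.92% of all genes tested. Fshr, the FSH receptor, had a log2 fold change of 0.47 (SE 0.16), just under the threshold of size, and the most abundant genes Inha and Inhbb had 0.088 (SE 0.089) and 0.42 (SE 0.24). Cyp19a1, the aromatase gene, spanned 5.06 to 65.0 CPM in WT and 6.84 to 45.2 CPM in GOAT KO. Without WT 1120 and GOAT KO 1139, 6 of the 12 were called (Fshr, Cyp19a1, Inhba, Inhbb, Nppc and Grem1). All were still short of an adjusted p of 0.05, and this set called 2.39% of all genes tested. None of the ovulatory genes with a fit in this set was called, and Areg and Ptgs2 had no fit. Tnfaip6 stood at 0.80 with an unadjusted p of 0.0541 in edgeR. Of the 9 ovulatory genes, 5 stayed under 2 CPM in every library, which limits their calls.

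Among the cell type lists, the granulosa cell genes had a median log2 fold change of 0.11 (4 of 6 above 0), the oocyte genes 0.17 (6 of 6) and the theca and steroidogenic genes 0.48 (4 of 4 tested), and none of these genes was called. Their part in the values of the FSH-driven genes was not tested. The 10 immediate early genes, which rise within minutes of many stimuli and of tissue handling, had fitted changes below 0 in all 10 with a median log2 fold change of -0.19, and none was called. Their sum was 198.7 to 339 CPM in WT and 208.8 to 257 CPM in GOAT KO, and the groups overlapped. The 6 macrophage genes had a median of -0.28, with 5 lower and none called.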

How the data were processed

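RNA of 8 ovaries, 4 per genotype, was sequenced by the authors as 50-base single reads, aligned to mm10 (GRCm38) with TopHat2 2.0.14 and deposited as raw read counts per gene symbol; the counting tool and its use of strand are not given in the sources used here. The authors also deposited per-library tables of read counts across splice junctions. Transcript assemblies and mapping summaries were not used.

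Counts were tested with edgeR 4.0.16 (R 4.3.3): filterByExpr, TMM, quasi-likelihood test of GOAT KO against WT, Benjamini-Hochberg over 16601 genes. Calls used the thresholds of the study's methods (p below 0.05, log2 fold change beyond 0.5 in size). The p was taken before adjustment, a choice that those methods do not spell out. Chi-square comparison of libraries found no duplicates. The members with counts and the junction reads of Adamts1 were tested by exact permutation (scipy 1.17.1). RPKM used union exon lengths of a GENCODE annotation of GRCm38, and most-alike genes used log2 CPM with a prior count of 2. The steps were tested on simulated data. Nothing in the labels gives a batch or a litter. The p-values set a difference between groups against the spread between these animals.

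Alternatives were RLE size factors, no filter, DESeq2 1.42.0, leaving out each library, and leaving out WT 1120 and GOAT KO 1139: the study dropped a library of each group from its test without naming it, and this pair appears to match. Named genes were the 9 members, Mboat4, called genes and the 2 most abundant of each list, Cyp19a1, Inhba, Fshr and Lhcgr, and the 3 genes most like each member; other genes were named after their values were seen. Members and lists were chosen with earlier results of these data known. A planned comparison of the EGF motifs of the ligand proteins was not made.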

Additional observations from a re-analysis of the deposited data

Results flagged for a closer look

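Pgr in GOAT KO 1146 stood apart from its group: it had 4.01 CPM there, against 1.79 to 2.05 CPM in the other 3 GOAT KO libraries, a gap of 0.886 of the group's whole range by Dixon's test for 4 samples. It was the only such value among 16 groups tested (8 genes in 2 groups), and chance marks about 1 in 20.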

How the results depend on the processing

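No paired analysis was possible because the labels give no litter, although the paper describes the WT and knockout animals as littermates. The number of members called was 1 with RLE size factors, without a filter and in DESeq2, 0 without WT 1120 and GOAT KO 1139, and 0 to 1 when single libraries were left out (0 without GOAT KO 1140). The number of pathway genes called was 3, rose to 7 without WT 1120 and GOAT KO 1139, and ranged from 2 to 8 with single libraries left out (8 without WT 1120, 6 without GOAT KO 1140). Over all genes, 278 were called, 691 without a filter on low counts and 231 to 437 with single libraries left out (437 without WT 1120). An adjusted p under 0.05 was reached by 4 genes, by 7 without a filter, 12 in DESeq2, 20 without WT 1120 and GOAT KO 1139, and 3 to 14 with single libraries left out (14 without GOAT KO 1139); no member was among them under any of these. The cause of these shifts was not tested. With single libraries left out, the log2 fold change of Btc ranged from -0.14 to 0.018 (0.018 without WT 1119, 0.011 without GOAT KO 1146) and that of Pgr from -0.28 (without GOAT KO 1146) to 0.19; the other 5 members tested kept their direction under all 12 alternatives. Inhba lost its call in 4 of the 8 sets without a library, while Cited4 and Grem1 kept theirs. The difference in Adamts1 junction reads ranged from -4.02 to -2.47 RPM with single libraries left out, where the smallest permutation p possible is 0.0571, was -2.83 RPM without WT 1120 and GOAT KO 1139 (smallest p possible 0.1), and was -1.04 RPM (exact permutation p = 0.429) without the 1 intron named above, a choice made after seeing the data. The Ptgs2 difference ranged from -0.145 to -0.00738 CPM with single libraries left out. Has2, Ptgs2, Tnfaip6 and Ereg rest on 4 to 26 counts a library, which limits their precision.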
